A study of Mus musculus with 4 samples.

Results

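The T cell receptor complex and its coreceptors were followed here through 10 genes: Cd3d, Cd3e, Cd3g, Cd247, Trac, Trbc2, Cd8a, Cd8b1, Cd4 and Thy1. They were chosen by gene symbol, and all 10 were found among the 32285 genes of the count tables. A T cell recognizes peptide on MHC molecules through the alpha and beta chains of its receptor, whose constant parts are encoded by Trac and by Trbc1 or Trbc2. These chains have no signaling tails of their own, so the signal is carried by the CD3 gamma, delta and epsilon chains (Cd3g, Cd3d, Cd3e) and by the zeta chain (Cd247). The coreceptor of cytotoxic T cells is CD8, made of the products of Cd8a and Cd8b1 and bound to MHC class I, whereas helper and regulatory T cells carry CD4 and read MHC class II. Thy1 is a small membrane glycoprotein of mouse T cells that fibroblasts, pericytes and some other stromal cells also make, so its level is given apart from the rest.

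The samples were 4 spatial transcriptome sections of MC38 tumors, a colon carcinoma line of C57BL/6 origin, each from a different tumor. The hosts were female F1 mice of 2 crosses, C57BL/6J x CC075/UncJ (CC075F1, 2 sections) and C57BL/6J x CC080/TauUncJ (CC080F1, 2 sections), aged 8 to 12 weeks and injected under the skin with tumor cells. The study used the first cross as a responder and the second as a non-responder to anti-PD-1. Every mouse of both groups had received only the isotype control antibody 2A3, 200 ug intraperitoneally at a tumor size of 75 to 110 mm3, and its tumor was taken 48 hours later, so no section shows a treated tumor, and each strain is represented by 1 slice of each of 2 tumors. The question put to these genes was whether T cell transcripts differed between the host strains before any checkpoint blockade, and where in the tumor they lay.

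Each section was captured on a grid of barcoded spots. A spot is a small region that can hold several cells or parts of cells, not a cell, and the value of a spot is a count of unique molecular identifiers (UMIs), in which each captured transcript counts once. The sections held 2710 to 3276 spots and 82594649 to 146460975 UMIs, with a median of 31139 to 41740 UMIs a spot. Pairs of sections shared 2016 to 2793 barcodes, which are grid positions of the slide and not shared cells. The CC075F1 replicate 2 section stood apart in skeletal muscle markers, at 137 CPM against 3.81 to 15.1 CPM in the others, where CPM is the count of UMIs scaled to 1000000 UMIs of the section, and in that section alone 25 spots drew over 1% of their UMIs from skin, muscle and fat markers. Of the 8 genes listed as T cell markers, 4 of them among the 10 genes, all 8 were found in each section. They summed to 44.1 and 38.0 CPM in CC075F1 against 14.7 and 15.6 CPM in CC080F1, mostly from Cd3d, Cd3e, Cd3g and Trac. Of the markers outside the 10 genes, Cd2 was higher in both CC075F1 sections. Cd5, Cd28 and Icos overlapped between the strains, Icos at 2.00 and 1.26 against 0.673 and 1.65 CPM. The spots are bulk tumor and hold far more of the macrophage markers (2423 to 4109 CPM).

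The genes lie on 4 chromosomes of the mouse genome (GRCm38). Cd3g (9:44969572-44980431, minus strand), Cd3d (9:44981786-44987339, plus strand) and Cd3e (9:44998740-45009627, minus strand) form a cluster on chromosome 9, on which Thy1 (9:44043384-44048579) also lies. The start sites of Cd3g and Cd3d face away from each other across 1355 bases. Cd8b1 (6:71322788-71337494) and Cd8a (6:71373427-71379173) are neighbours on chromosome 6 with 35932 bases between them, and Trbc2 (6:41546730-41548352) and Cd4 (6:124864692-124888221) are on the same chromosome. Trac (14:54220521-54224206) is on chromosome 14 and Cd247 (1:165788681-165877277) on chromosome 1. The 250 bases before the start site were taken from RefSeq (GRCm38.p6) for the 3 CD3 genes, whose levels differed in the same direction between the strains, and for Cd8a, 5′ to 3′ on the strand of each gene. Capitals mark the ETS core AGGAAG and the GATA motif AGATAA on either strand.
Cd3g, chr9:44980432-44980681, minus strand: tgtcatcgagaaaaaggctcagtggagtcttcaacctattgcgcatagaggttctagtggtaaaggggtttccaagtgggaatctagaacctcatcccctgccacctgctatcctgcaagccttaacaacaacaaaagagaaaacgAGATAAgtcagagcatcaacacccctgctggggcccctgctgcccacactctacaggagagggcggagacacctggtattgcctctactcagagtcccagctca
Cd3d, chr9:44981536-44981785, plus strand: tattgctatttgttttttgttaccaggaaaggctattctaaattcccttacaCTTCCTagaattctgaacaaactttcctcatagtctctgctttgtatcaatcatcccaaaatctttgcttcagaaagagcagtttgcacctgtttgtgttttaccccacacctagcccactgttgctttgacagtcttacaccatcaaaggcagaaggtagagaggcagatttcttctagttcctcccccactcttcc
Cd3e, chr9:45009612-45009861, minus strand: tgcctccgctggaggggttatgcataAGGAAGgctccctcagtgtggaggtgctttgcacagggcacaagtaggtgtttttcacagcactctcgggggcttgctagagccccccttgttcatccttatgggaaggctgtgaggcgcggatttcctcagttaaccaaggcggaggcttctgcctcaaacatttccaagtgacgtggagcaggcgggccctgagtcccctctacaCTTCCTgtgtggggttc
Cd8a, chr6:71373177-71373426, plus strand: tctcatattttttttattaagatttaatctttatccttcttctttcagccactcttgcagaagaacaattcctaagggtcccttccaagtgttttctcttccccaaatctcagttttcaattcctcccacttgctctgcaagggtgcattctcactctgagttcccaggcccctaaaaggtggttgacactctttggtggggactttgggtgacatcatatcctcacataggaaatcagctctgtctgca
The start-site table held 5 of the 10 genes, these 4 and Cd247. The Cd3d stretch held 1 ETS core and the Cd3e stretch 2, the Cd3g stretch held 1 GATA motif and no ETS core, and the Cd8a stretch held neither. The third motif searched, the RUNX core TGTGGT, was in none of the 5 stretches, and no matches overlapped. Of all 32851 start-site windows of this length, 29.48% held the ETS core, 9.988% the GATA motif and 14.05% the RUNX core.

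The transcripts of the receptor complex and of CD8 were higher in both CC075F1 sections than in both CC080F1 sections. Cd4 was not separable between the strains, and Thy1 had the opposite order in CPM, with little difference once scaling factors were applied. For 8 of the 10 genes (all but Cd4 and Thy1) the lowest CC075F1 section lay above the highest CC080F1 section, a pattern shown by 6.63% of the 15572 genes tested. The reverse pattern, that of Thy1, was shown by 30.3% of them. Differences between the strains were tested on UMIs summed over each section with edgeR's quasi-likelihood test, with Benjamini-Hochberg adjustment over all genes tested and a threshold of 0.05. Of the 10 genes, 1 passed, Cd3g, against 0.0899% of all genes tested (14 genes, 9 of them higher in CC075F1, or 0.0578%). The number was 0 without CC075F1 replicate 1 or 2, and 6 of the 10 without CC080F1 replicate 1 or 2. At an unadjusted p under 0.05 there were 8 of the 10, against 5.43% of all genes. The median log2 fold change (CC075F1 over CC080F1) of the 9 genes without Thy1 was 1.80, and that of all genes tested was -0.02. Levels in CPM are given without scaling factors, and on that scale the median gene lay at -0.31, so differences in CPM sit below those of the fit. In the fit Thy1 was at -0.22 (SE 0.20, edgeR adjusted p = 0.838). In whole sections, fewer T cells and less RNA per T cell cannot be told apart.

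**Figure D1:**
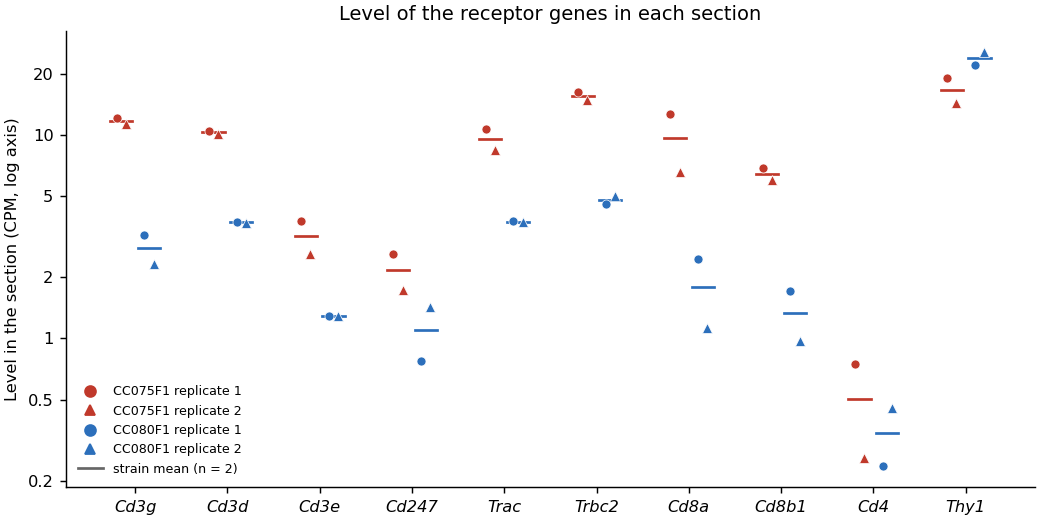
Level of each gene in each section, in CPM on a log axis. Points are sections (circle, replicate 1, and triangle, replicate 2), and bars are the mean of the 2 sections of a strain. CC075F1 points lie above CC080F1 points for 8 genes, overlap them for Cd4 and lie below them for Thy1.

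Cd3g, the gamma chain, was at 12.1 and 11.3 CPM in CC075F1 replicates 1 and 2 (998 and 1662 UMIs), against 3.23 and 2.32 CPM in CC080F1 (302 and 261 UMIs). The 2 sections of a strain were close to each other and the strains did not overlap. The log2 fold change was 2.42 with a standard error of 0.27 (edgeR adjusted p = 0.0491), so Cd3g was 5.35-fold higher in CC075F1. The adjusted p was just under the threshold, and rose above it with DESeq2's size factors (0.0528), with limma-voom (0.0565), with library size alone and without either CC075F1 section, while the log2 fold change stayed between 2.08 and 2.63 over the 15 settings.

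Cd3d, the delta chain, was at 10.4 and 10.1 CPM in CC075F1 against 3.73 and 3.71 CPM in CC080F1. Its sections were close within each strain and did not overlap between strains, and CC075F1 was higher by 1.80 on the log2 scale (SE 0.26, edgeR adjusted p = 0.0778). Cd3e, the epsilon chain that pairs with both of the others, gave fewer UMIs, at 3.75 and 2.60 CPM in CC075F1 against 1.28 and 1.29 CPM in CC080F1. The fold change of Cd3e was 1.59 on the log2 scale (SE 0.32, edgeR adjusted p = 0.264). The CC075F1 sections were higher for both genes, and neither passed the test.

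The genes of the CD3 cluster were also compared with each other. The ratio of Cd3g to Cd3d UMIs was 1.16 and 1.12 in CC075F1 against 0.865 and 0.624 in CC080F1. It did not overlap between the strains, and the difference of 0.63 on the log2 scale gave p = 0.33 in a two-sided exact permutation test, the smallest that 2 sections against 2 can give. The ratio of Cd3e to Cd3d was 0.359, 0.257, 0.344 and 0.347 in the same order, with CC075F1 replicate 2 lowest and the other CC075F1 section highest.

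Cd247, the zeta chain, which NK cells use as well with their Fc receptor and natural cytotoxicity receptors, was at 2.60 and 1.73 CPM in CC075F1 against 0.769 and 1.43 CPM in CC080F1. The strains did not overlap, but CC075F1 replicate 2 and CC080F1 replicate 2 were near each other, and the log2 fold change of 1.24 (SE 0.43) did not pass (edgeR adjusted p = 0.756). Relative to the 3 CD3 chains, Cd247 UMIs came to 0.099 and 0.072 in CC075F1 against 0.0934 and 0.195 in CC080F1, so that CC080F1 replicate 2 was the highest. In that section the NK receptor gene Ncr1 was at 2.61 CPM, against 0.448 and 0.765 CPM in CC075F1 and 0.353 CPM in CC080F1 replicate 1. The 5 NK cell markers together ranged from 8.74 to 10.3 CPM in CC075F1 and from 4.69 to 12.2 CPM in CC080F1, with all 5 found in each section. Among them Klra8 and Klre1 were higher in both CC075F1 sections, like Cd247, at 4.13 and 3.58 against 1.84 and 2.64 CPM for Klra8, and the other 3 overlapped. The part of NK cells in the Cd247 level was not tested.

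Trac, the constant part of the alpha chain, was at 10.7 and 8.43 CPM in CC075F1 against 3.77 and 3.73 CPM in CC080F1, higher in CC075F1 by 1.65 on the log2 scale (SE 0.23, edgeR adjusted p = 0.0778). Trbc2, a constant part of the beta chain, was at 16.2 and 14.8 CPM in CC075F1 against 4.57 and 5.01 CPM in CC080F1, higher by 2.02 on the log2 scale (SE 0.24, edgeR adjusted p = 0.0539). For both genes the strains were well apart and neither passed, Trbc2 by a narrow margin. Trbc2 passed in 8 of the 15 settings, for instance without the spots under 10000 UMIs (edgeR adjusted p = 0.0436).

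Trbc2 has a near copy, Trbc1, and the split of UMIs between them is uncertain: over the 512 aligned bases of their reference transcripts 488 are identical (95.3%), with an unbroken identical run of 259 bases. Trbc1 did not follow Trbc2. It was at 7.14 and 12.4 CPM in CC075F1 against 2.01 and 8.69 CPM in CC080F1, so that replicate 2 was the higher one in each strain and the strains overlapped. The ratio of Trbc1 to Trbc2 UMIs was 0.441 and 0.834 in CC075F1 against 0.439 and 1.73 in CC080F1. The replicate 2 sections with the higher ratio also had more UMIs of Ncr1 (112 and 294, against 37 and 33) and of the gamma delta receptor gene Trdc (60 and 68, against 11 and 15), and their part in the Trbc1 level was not tested.

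Cd8a and Cd8b1 had the largest fold changes of the 10 genes. Cd8a was at 12.7 and 6.59 CPM in CC075F1 against 2.46 and 1.13 CPM in CC080F1. Replicate 1 was the higher section in each strain, and the strains did not overlap. CC075F1 was higher by 2.70 on the log2 scale (SE 0.39, edgeR adjusted p = 0.0778). Cd8b1 was at 6.91 and 5.99 CPM in CC075F1 against 1.71 and 0.967 CPM in CC080F1, again without overlap, and higher in CC075F1 by 2.60 on the log2 scale (SE 0.35, edgeR adjusted p = 0.0742). The ratio of Cd8a to Cd8b1 UMIs was 1.84 and 1.10 in CC075F1 against 1.44 and 1.17 in CC080F1, which overlapped. Cd8a is also made by a class of dendritic cells (cDC1), and their receptor gene Xcr1 was at 1.36 and 0.437 CPM in CC075F1 against 0.256 and 0.302 CPM in CC080F1, in the order of Cd8a within CC075F1 only. The 4 cDC1 markers, all found in each section, summed to 20.1 and 9.05 CPM in CC075F1 against 13.1 and 13.9 CPM in CC080F1. That sum was mostly Wdfy4, at 16.9 and 7.59 against 11.8 and 12.8 CPM, whereas Clec9a, like Xcr1, was higher in both CC075F1 sections, at 0.993 and 0.492 against 0.256 and 0.328 CPM. The part of these cells in the Cd8a level was not tested.

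Cd4 was scarce everywhere. It gave 62 and 38 UMIs in CC075F1 against 22 and 51 UMIs in CC080F1, or 0.751, 0.259, 0.235 and 0.453 CPM. The sections of the strains overlapped, and the log2 fold change of 0.73 (SE 0.58, edgeR adjusted p = 0.831) was 0.15 to 1.37 over the 15 settings. Foxp3, the master factor of regulatory T cells, which carry CD4, gave 73, 47, 37 and 96 UMIs in the same order, more than Cd4 itself in each section. The UMI ratio of Foxp3 to Cd4 was 1.18 and 1.24 in CC075F1 against 1.68 and 1.88 in CC080F1. The 3 regulatory T cell markers summed to 3.60 and 1.89 CPM in CC075F1 against 2.44 and 5.20 CPM in CC080F1, which overlapped.

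The balance of the coreceptors was therefore compared within each section, where no scaling is needed. The ratio of Cd8a to Cd4 UMIs was 16.9 (95% Clopper-Pearson interval 13.1 to 22.2) and 25.4 (18.4 to 36.1) in CC075F1, and 10.5 (6.74 to 17.0) and 2.49 (1.79 to 3.52) in CC080F1. These intervals cover counting error only. The CC075F1 sections were the higher ones, but CC080F1 replicate 1 lay nearer to CC075F1 replicate 1 than to the other section of its own strain, and their intervals met. The mean difference was 2.02 on the log2 scale, or 4.06-fold (two-sided exact permutation p = 0.33, the smallest possible). It was 3.06 without CC080F1 replicate 1 and 0.99 without CC080F1 replicate 2. With Cd8b1 in place of Cd8a the ratios were 9.21 and 23.1 against 7.27 and 2.14, in the same order. UMIs counted at the transcript's end need no division by gene length, but capture can still differ between genes, so the ratios compare sections and not the numbers of CD8 and CD4 cells.

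The other genes of the receptor's signaling path leaned the same way, at smaller size and without passing the test. Of 36 such genes listed (kinases, adapters, costimulators and the remaining receptor chains), 34 were in the tables and 33 were tested. None passed the edgeR test between strains, beside 0.0899% of all genes, and 5 of the 33 had an unadjusted p under 0.05, beside 5.43%. DESeq2 called 2, Cd2 and Lat, beside 1.25% of all genes. Of the 33, 28 had a positive log2 fold change, beside 47.5% of all genes, with a median of 0.56 beside -0.02. The 4 largest among genes of at least 1 CPM were those of Cd2, an adhesion receptor of T and NK cells (1.56, SE 0.42, edgeR adjusted p = 0.520), Lat, the membrane adapter phosphorylated by ZAP-70 (1.49, SE 0.36, edgeR adjusted p = 0.415), Trbc1 (1.23, SE 0.70, edgeR adjusted p = 0.830) and Cd6, a modulator of receptor signaling (1.19, SE 0.45, edgeR adjusted p = 0.830). Ptprc, which encodes CD45 of all leukocytes, was at 40.4 and 30.2 CPM in CC075F1 against 33.7 and 34.1 CPM in CC080F1, so the strains overlapped in it.

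Shares of spots with a transcript depend on depth, so each spot was thinned to 10000 UMIs and the expected share computed over the 2549, 3174, 2734 and 2969 spots deep enough. At least 1 of the 9 genes without Thy1 was present in 51.5% and 44.3% of CC075F1 spots and in 18.5% and 17.3% of CC080F1 spots, a ratio of strain means of 2.67. For the 3 CD3 chains the shares were 23.3% and 22.7% in CC075F1 (23.0% ± 0.401, SD, n = 2) against 7.70% and 7.30% in CC080F1 (7.50% ± 0.285, SD, n = 2), 3.06 times as many, at an exact permutation p of 0.33. The sections of a strain lay within about 1 percentage point of each other and the strains were far apart. At full depth the CD3 chains were found in 49.9% (48.0 to 51.8) and 56.9% (55.2 to 58.6) of CC075F1 spots and 21.9% (20.4 to 23.5) and 20.3% (18.9 to 21.7) of CC080F1 spots, where the brackets are 95% Clopper-Pearson intervals.

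**Figure D2:**
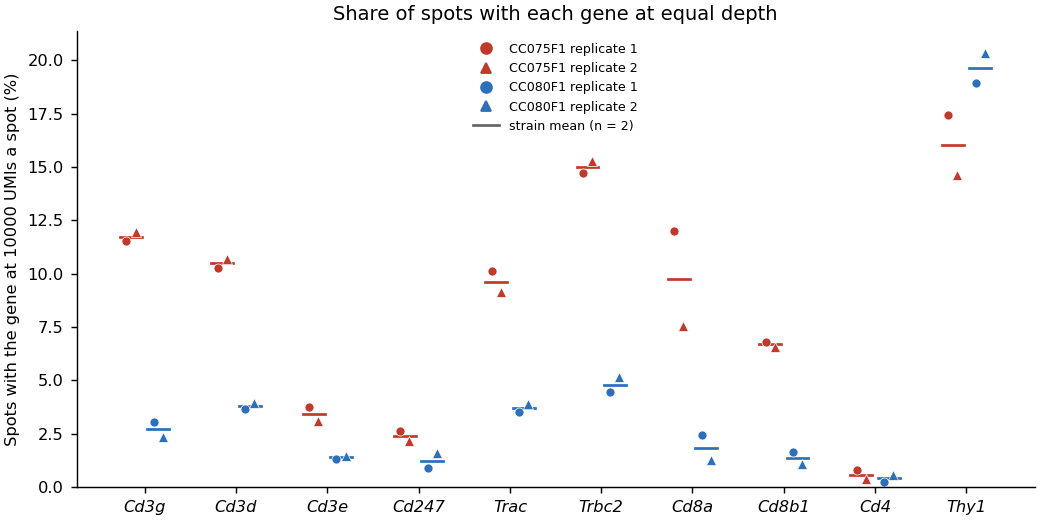
Expected share of spots, in percent, that hold each gene after thinning every spot to 10000 UMIs. Points are sections and bars are strain means. The CC075F1 and CC080F1 sections are apart for the CD3 chains, Trac, Trbc2 and both Cd8 genes, Cd4 stays under 1% in all 4, and Thy1 is lower in CC075F1.

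By gene, the largest ratios of shares were those of Cd8a, at 12.0% and 7.54% in CC075F1 against 2.43% and 1.26% in CC080F1, and of Cd8b1, at 6.80% and 6.57% against 1.64% and 1.07%. These were 5.28 and 4.94 times as many spots in CC075F1. Cd3g was in 11.5% and 11.9% of CC075F1 spots and in 3.07% and 2.36% of CC080F1 spots (4.32 times), and Trbc2 in 14.7% and 15.3% against 4.44% and 5.16% (3.13 times). Cd4 was in 0.771% and 0.383% against 0.222% and 0.574% of spots, which overlapped.

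The CC075F1 sections had more spots with several of the genes at once. Such a count rises with the level of each gene and with depth, so it is no separate result on genes sharing spots. At full depth, none of the 9 genes was found in 18.4% and 19.4% of CC075F1 spots and in 55.3% and 58.8% of CC080F1 spots, and 5 or more of them in 4.32% and 8.21% against 0.215% and 0.410%. The richest spot held 13, 26, 9 and 14 UMIs of the 9 genes in the 4 sections in order. The 10% of spots with the most carried 29.2% and 32.7% of these UMIs in CC075F1 against 42.7% and 47.6% in CC080F1. This share also rises where UMIs are few, and there were 6287 and 9067 of them in CC075F1 against 2036 and 2257 in CC080F1. It therefore cannot show whether the genes were more focal in either strain. In CC075F1 most spots held at least 1 of these genes and in CC080F1 most held none.

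**Figure D3:**
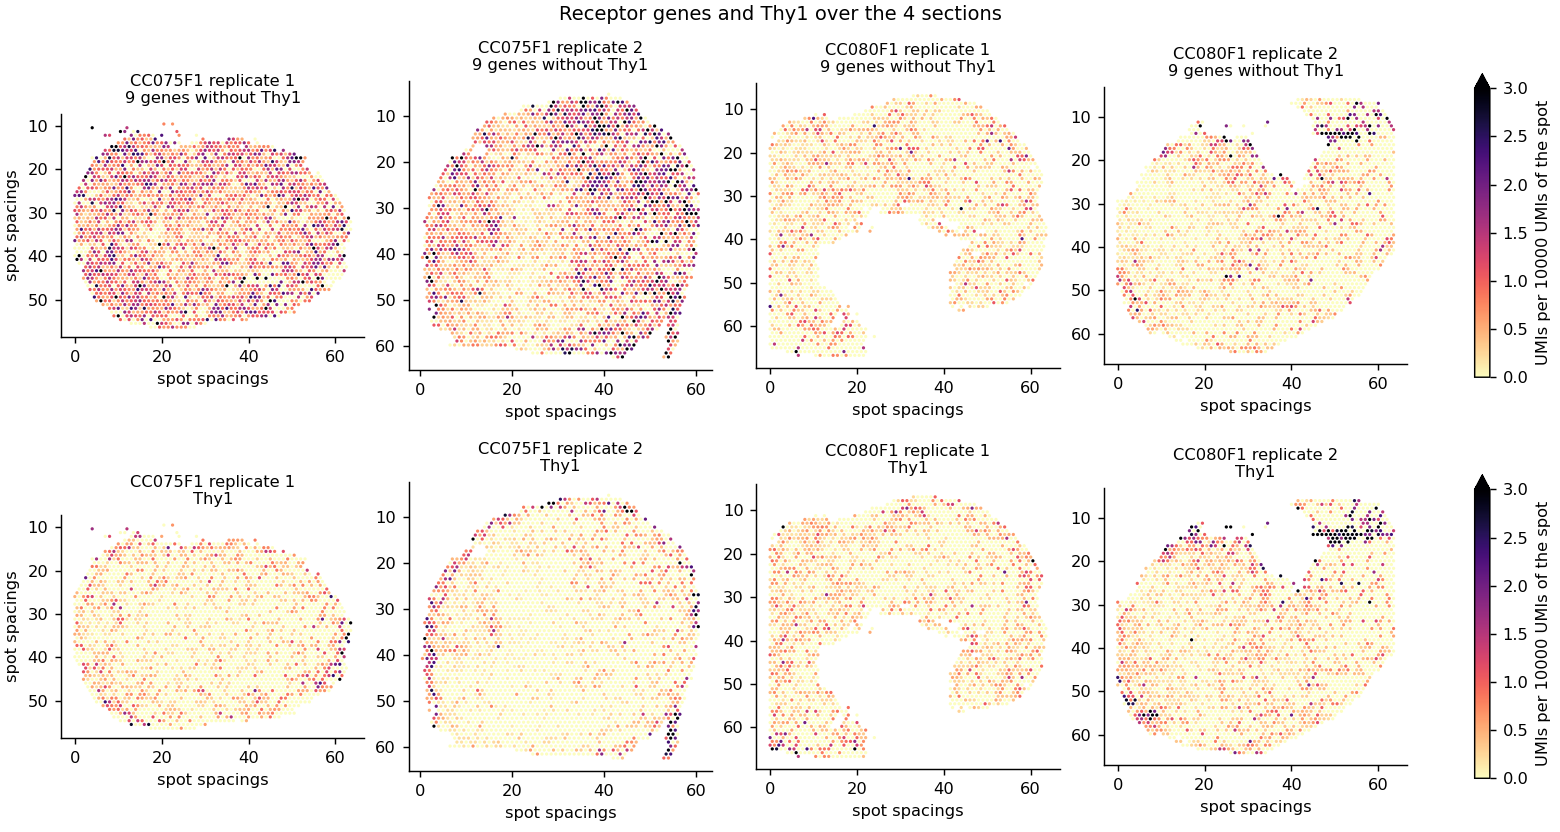
UMIs of the 9 genes without Thy1 (upper row) and of Thy1 (lower row) per 10000 UMIs of each spot, drawn at the position of the spot in the 4 sections with axes in spot spacings. The upper row is darker in CC075F1 than in CC080F1, and Thy1 is darkest along the outline of CC075F1 replicate 2 and in the upper right corner of CC080F1 replicate 2.

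Receptor genes were found in the same spots with an odds ratio above 1 at matched depth in nearly all pairs. Spots were split into 10 strata by their depth and an odds ratio was pooled over them by the Mantel-Haenszel method, with no p-value because spots of a section are not replicates. Of the 36 pairs that do not involve Cd4, 35 had an odds ratio above 1 in all 4 sections, the exception being Cd247 with Cd8b1, at 0.967 in CC080F1 replicate 2. The median of the 36 was 1.30 and 1.81 in CC075F1 replicates 1 and 2 against 1.57 and 2.04 in CC080F1, so replicate 2 was higher in both strains. For Cd3g with Trac the odds ratios were 1.21, 2.10, 1.88 and 2.93 in order, and for Trbc2 with Cd8a 1.25, 2.13, 1.65 and 3.28. Of the 9 pairs with Cd4, on which few UMIs bear, 3 were above 1 in all sections. Cd4 with any of the CD3 and receptor chains was at 3.89, 1.87, 1.53 and 1.58.

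Spots with a coreceptor held a CD3 chain more often than spots at large in every section, depth not matched. Of spots with Cd8a or Cd8b1, 58.1% and 70.8% in CC075F1 against 30.2% and 34.1% in CC080F1 also held a CD3 chain, where 49.9%, 56.9%, 21.9% and 20.3% of all spots did. Of spots with Cd4 the values were 59.7% and 60.0% against 33.3% and 35.4%. A spot with both Cd4 and a Cd8 gene was rare, at 32, 12, 4 and 6 spots in the 4 sections.

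Over the tissue the receptor genes were weakly clustered, in a measure that does not match spots by depth. Spots near the tissue edge were shallower than those inside, and the part of depth in the clustering was not tested. Moran's I over the 6 nearest spots, computed on log2(CPM + 1) and 0 for a random arrangement, was above 0 in all 4 sections for 7 of the 10 genes. For the 3 CD3 chains together it was 0.0455, 0.0917, 0.0505 and 0.0576, and for Thy1 it was 0.0826, 0.220, 0.102 and 0.154. Thy1 was above the CD3 chains in every section. Few UMIs lower this measure, and in CC080F1 Thy1 had 2062 and 2881 UMIs against 771 and 824 of the CD3 chains. In CC075F1 Thy1 had the fewer, at 1568 and 2104 against 2171 and 3527. The 9 other genes together, which have more UMIs than the CD3 chains alone, were at 0.0959, 0.215, 0.0865 and 0.123, above Thy1 in CC075F1 replicate 1 and below it in the others. The fibroblast marker list, with far more UMIs a spot, was at 0.303 to 0.626 on the same scale.

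Thy1 stood apart from the other genes. It was at 19.0 and 14.4 CPM in CC075F1 against 22.0 and 25.6 CPM in CC080F1. The strains did not overlap, with CC075F1 the lower, as 30.3% of all genes tested were on the CPM scale. In the edgeR fit the log2 fold change was -0.22 (SE 0.20, adjusted p = 0.838), negative in all 15 settings and called in none. At equal depth Thy1 was in 17.4% and 14.6% of CC075F1 spots and 18.9% and 20.4% of CC080F1 spots.

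Because the CD3 chains had the opposite order, the ratio of Thy1 to CD3 UMIs separated the strains. It was 0.722 (95% Clopper-Pearson interval 0.676 to 0.771) and 0.597 (0.565 to 0.630) in CC075F1, and 2.67 (2.46 to 2.91) and 3.50 (3.24 to 3.78) in CC080F1. The difference was -2.22 on the log2 scale, a ratio 0.215 times as high in CC075F1 (exact permutation p = 0.33, the smallest possible). With Trac and Trbc2 in place of the CD3 chains the ratios were 0.707 and 0.618 against 2.64 and 2.92. Spots with Thy1 and no CD3 chain made up 16.0% and 13.1% of CC075F1 spots and 33.9% and 36.0% of CC080F1 spots at full depth. This share also rises where fewer spots hold a CD3 chain. Those were 49.9% and 56.9% of spots in CC075F1 against 21.9% and 20.3% in CC080F1. The share is therefore no separate result on Thy1 outside T cells.

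Thy1 still shared spots with the receptor genes. Its odds ratio with the CD3 chains was 1.58, 1.96, 1.28 and 1.51, the 2 lowest in CC080F1. The CD3 chains were taken by presence and the marker lists by a split at their median share, so the sizes of these odds ratios are not comparable. The odds ratio of Thy1 with spots above the median share of the pericyte markers was 1.74, 2.43, 2.18 and 2.39. With the endothelial markers it was 2.06, 2.38, 2.01 and 2.04. For the fibroblast markers it was 0.866, 1.96, 1.39 and 1.91, below 1 in CC075F1 replicate 1. The 8 other receptor genes besides Cd4 had odds ratios with the pericyte markers between 1.08 and 1.80 over the 4 sections. The pericyte list, all 3 genes found in each section, was at 42.7 and 29.6 CPM in CC075F1 against 125 and 82.9 CPM in CC080F1. The endothelial list of 4 genes was at 49.7 and 34.6 against 96.8 and 60.4 CPM, and the fibroblast list of 7 at 1893 and 1119 against 2836 and 2587 CPM. The sums of all 3 lists, like Thy1, were higher in both CC080F1 sections, as was each gene of the pericyte and endothelial lists. On this CPM scale, without scaling factors, 30.3% of all genes tested had the same order. The fibroblast sum was mostly Col3a1 (1141 and 334 against 1992 and 1409 CPM) and Dcn, whereas Col1a1, Col1a2, Pdgfra, Bgn and Postn overlapped between the strains, Col1a2 at 51.3 and 164 against 45.8 and 111 CPM. The part of these cells in the Thy1 level was not tested.

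**Figure D4:**
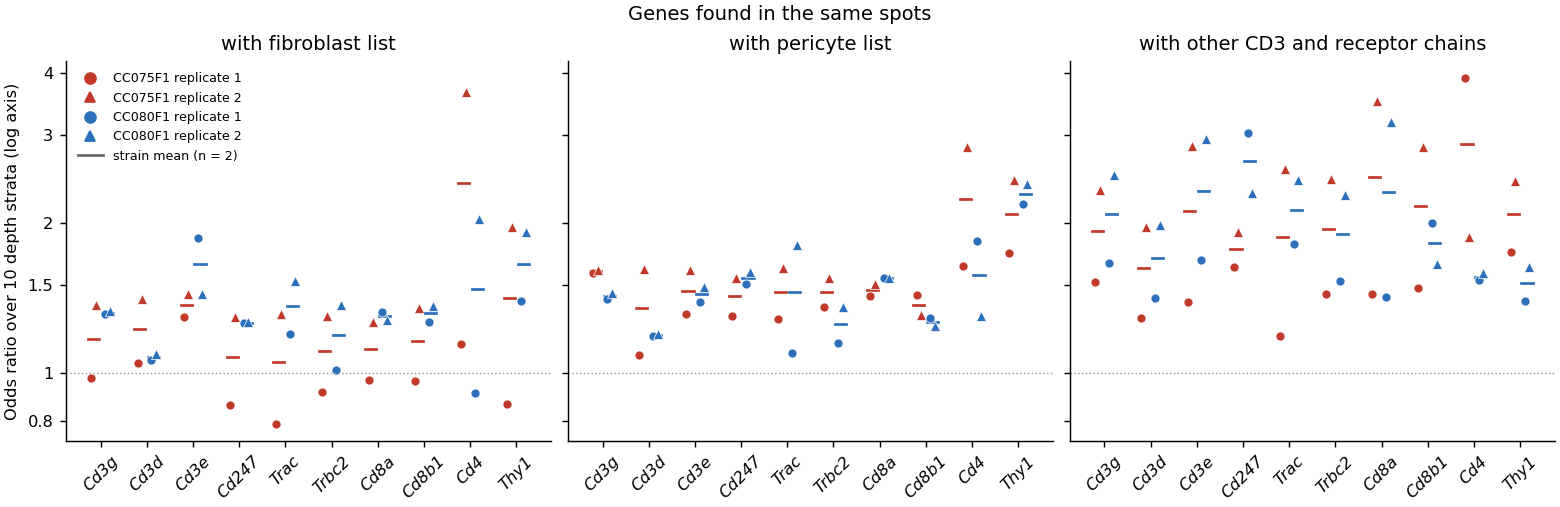
Odds ratio, on a log axis and pooled over 10 depth strata, for each gene being found in spots above the median share of the fibroblast list (left) and the pericyte list (middle) and in spots with any of Cd3d, Cd3e, Cd3g, Trac and Trbc2 other than itself (right). Points are sections and bars strain means, and 1 is no association. Thy1 lies at 1.74 to 2.43 with the pericyte list.

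The genes most like Thy1 and most like the receptor chains in level over spots were sought among 12245 genes present in at least 2% of spots of every section, by the lowest Pearson correlation of log2(CPM + 1) over the 4 sections. For Thy1 the 8 were Postn, Bgn, Sparc, Igfbp7, Mcam, Col1a2, Col15a1 and Serpine2, with lowest correlations of 0.240 for Postn down to 0.183. They include the matrix genes Postn, Bgn and Col1a2 of the fibroblast list and Mcam, a surface protein of pericytes and endothelium. Other genes of that list were unlike Thy1: Dcn, a matrix proteoglycan, had correlations of -0.039 to -0.015 over the sections, and Col3a1, a fibrillar collagen, of -0.043 in CC075F1 replicate 1 to 0.349 in CC075F1 replicate 2. The other receptor genes reached lowest correlations with Thy1 of 0.002 to 0.058. For the sum of Cd3d, Cd3e, Cd3g, Trac and Trbc2 the 8 were Tmsb4x, AW112010, Cd52, Aif1, Ctss, Cd74, Sparcl1 and Serpina3g, from 0.144 down to 0.101. Thy1 ranked 13 for that sum, with a lowest correlation of 0.095. These values are weak, and genes of a spot share its depth and capture, so they are a description only.

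Distance from the tissue edge was counted in grid steps to the nearest position without tissue, and spots within 3 steps were called edge. There were 568 and 665 edge spots in CC075F1 against 880 and 648 in CC080F1, and they were shallower than the interior, with a median of 18032 and 25171 UMIs in CC075F1 against 30120 and 26855 in CC080F1, where the interior had 33592, 46146, 34844 and 37003 in order. In the edgeR test of edge against interior, with the section as a block, 1 of the 10 genes was called, Thy1, beside 1.10% of the 15089 genes tested (1.00% higher at the edge). At an unadjusted p under 0.05 there were 5 of 10, against 18.3%. On CPM, 4 genes (Cd247, Trbc2, Cd4 and Thy1) were higher at the edge in all 4 sections, as were 17.6% of all genes, and the other 6 in 3 of 4.

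Thy1 was at 39.0 and 42.1 CPM in the edge spots of CC075F1 and 15.8 and 10.2 CPM in the interior. In CC080F1 it was at 25.8 and 43.8 CPM at the edge and 20.5 and 22.1 CPM inside. The edge was thus 2.46, 4.12, 1.26 and 1.98 times as high, and it was higher in every section. Thy1 rose at the edge by a log2 fold change of 1.09 (SE 0.20, edgeR adjusted p = 0.0467). This call is close to the threshold: it was lost with an edge of 2 steps (adjusted p = 0.0522) or 5 steps, with library size alone (0.0587) and without CC075F1 replicate 1 or CC080F1 replicate 2, while the log2 fold change stayed between 0.84 and 1.35. Going inward from the first 3 steps to 13 steps and more, Thy1 went from 39.0 to 10.1 and from 42.1 to 8.23 CPM in CC075F1, and from 25.8 to 19.3 and from 43.8 to 16.8 CPM in CC080F1.

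The CD3 chains were more even. Their summed level at the edge was 32.4 and 34.1 CPM in CC075F1 against 25.3 and 22.6 CPM inside, and 7.69 and 11.5 CPM in CC080F1 against 8.46 and 6.52 CPM inside. The edge was 1.28, 1.51, 0.909 and 1.77 times the interior, lower than it in CC080F1 replicate 1. From the first 3 steps to 13 and more they went from 32.4 to 20.5 and from 34.1 to 19.2 CPM in CC075F1 and from 11.5 to 5.73 CPM in CC080F1 replicate 2, while CC080F1 replicate 1 stayed between 6.12 and 9.44 CPM. None of the 3 chains passed the test, with log2 fold changes of 0.31 to 0.47 and edgeR adjusted p from 0.264 to 0.291. Trbc2, at 1.27, 1.49, 1.14 and 1.57 times, had the next lowest adjusted p after Thy1 (0.36 on the log2 scale, edgeR adjusted p = 0.103). Cd8a was at 1.38, 1.30, 0.922 and 1.11 times and Cd8b1 at 1.11, 1.22, 0.735 and 1.34 times the interior, and the contrast of Cd8b1 was 0.02 on the log2 scale (edgeR adjusted p = 0.969). In the interior alone the strains did not overlap in either ratio: the Cd8a to Cd4 ratio was 16.3 and 57.7 in CC075F1 against 11.1 and 2.92 in CC080F1, and that of Thy1 to CD3 0.626 and 0.453 against 2.42 and 3.39. At the edge the Cd8a to Cd4 ratio overlapped, at 20.8 and 6.54 in CC075F1 against 9 and 1.47 in CC080F1 (exact permutation p = 0.667), on 7 to 24 Cd4 UMIs a section, and that of Thy1 to CD3 did not, at 1.20 and 1.23 against 3.35 and 3.80.

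**Figure D5:**
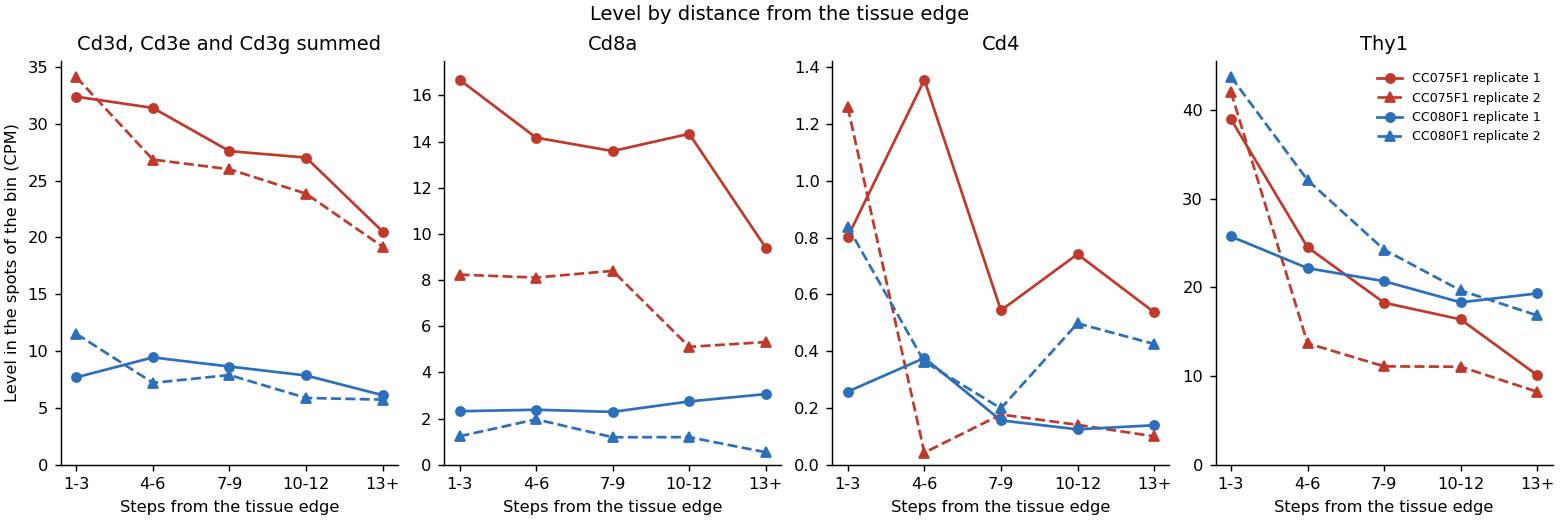
Level in CPM by steps from the tissue edge for the 3 CD3 chains together, Cd8a, Cd4 and Thy1, with a line for each section (red CC075F1, blue CC080F1, solid replicate 1, dashed replicate 2). Thy1 is highest in the first 3 steps in all 4 sections, the CD3 lines of CC075F1 stay above those of CC080F1 at every distance, and Cd4 rests on few UMIs.

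Cd4 had its widest edge contrast in CC075F1 replicate 2, where 24 UMIs came from the edge and 14 from the far larger interior, 11.5 times the level. In the other sections, CC075F1 replicate 1 and CC080F1 replicates 1 and 2, the edge was at 1.08, 1.14 and 2.21 times the interior, on 9, 7 and 15 edge UMIs. Over all 4 sections the contrast was 1.22 on the log2 scale and did not pass (edgeR adjusted p = 0.274). The regulatory T cell list was likewise highest in CC075F1 replicate 2, at 1.55, 4.08, 1.13 and 2.20 times the interior in order. In the same section the fibroblast list was at 3.16 times the interior, against 0.954, 0.934 and 1.30 in the others.

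Whether the edge contrast differed between the strains was tested as an interaction. None of the 10 genes was called by edgeR, beside 0.106% of all genes (0.0862% with a larger contrast in CC075F1), and 1 had an unadjusted p under 0.05, against 8.50%. That was Thy1, whose contrast was larger in CC075F1 by 0.87 on the log2 scale (SE 0.24, edgeR adjusted p = 0.307). The pericyte list followed the same order, at 1.80 and 1.85 times the interior in CC075F1 against 0.866 and 1.25 times in CC080F1, as did the endothelial list at 1.97 and 2.08 against 1.11 and 1.35 and the cDC1 list at 1.31 and 1.84 against 0.946 and 1.02. The NK cell list, at 1.35 and 1.73 against 0.973 and 0.787, was also higher in both CC075F1 sections, while the fibroblast and regulatory T cell lists overlapped between the strains.

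An area of CC080F1 replicate 2 is described on its own, with no test, since it was picked from the map of these genes. It is the upper right corner of that section, 232 spots with a median of 8825 UMIs, against 36131 in the rest. There the CD3 chains were at 19.8 CPM (57 UMIs) against 6.98 CPM in the rest, Trac at 13.9 against 3.46, Cd4 at 2.08 (6 UMIs) against 0.410, and Thy1 at 90.3 (260 UMIs) against 23.9 CPM. Cd8a was at 3.13 CPM, on 9 UMIs, against 1.07. The NK cell list was at 10.4 CPM (30 UMIs) against 12.3 CPM, though its gene Ncr1 gave 1 UMI there of 294. The area was richer in fibroblast markers, at 5264 against 2517 CPM, and in fat markers, at 271 against 38.8 CPM. It was also richer in the regulatory T cell list, at 31.3 against 4.52 CPM. Leaving it out moved the edge contrast of Thy1 in that section from 1.98 to 1.88, raised the adjusted p of Thy1 over all sections to 0.0540, and left the strain difference of Cd3g at 2.45 on the log2 scale (edgeR adjusted p = 0.0455).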

How the data were processed

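Fresh-frozen sections were captured on Visium slides. Per the labels and the study's methods, the authors aligned reads with Space Ranger to GRCm38, the reference of the C57BL/6J parent that both crosses share, and deposited raw UMI counts per gene and spot; Seurat 5.0.1, which they used downstream, does not enter these counts. Spots over tissue were all kept. Counts were summed per section, or over its edge and interior, and tested in edgeR 4.0.16 (R 4.3.3) with TMM factors and filterByExpr, with section as block for the edge. DESeq2 1.42.0 and limma 3.58.1 served as alternatives. Shares, ratios and odds ratios were computed per section, and 2 sections a strain limit each comparison. The fits, pooled odds ratios and Moran's I were tested on simulated data. The 10 genes, the marker and signaling lists and the tests were chosen with earlier results of these data known. Genes named beyond the 10 are signaling genes called in a fit or the 4 largest strain differences at 1 CPM or more, the 8 nearest in pattern to the receptor sum and to Thy1, and listed markers; the corner area was chosen after its values were seen. The study's methods place the 4 blocks on a Visium slide, and which capture area held which section is not given in the sources used here.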

Additional observations from a re-analysis of the deposited data

Results flagged for a closer look

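The 5 NK cell markers summed were higher at the tissue edge than inside in both CC075F1 sections, at 1.35 and 1.73 times, and lower in both CC080F1 sections, at 0.973 and 0.787 times. They were flagged because every section of a strain went one way and every section of the other strain the opposite way. The value of 0.973, in CC080F1 replicate 1, was close to even, on 125 edge and 314 interior UMIs. The opposite direction thus rests mainly on CC080F1 replicate 2. The share of all genes with such a pattern was not computed. The difference was not tested beyond an exact permutation of the strain labels, whose p of 0.33 is the smallest that 2 against 2 sections can give.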

How the results depend on the processing

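Between strains, 14 genes were called, 40 with library size alone, 480 with no filter on low counts, 194 with DESeq2 and 287 with the replicate number as a replicate block. Of the 10 genes 1 was called, 0 with DESeq2 size factors, with library size alone and with limma-voom, 2 without spots over 1% in skin, muscle and fat markers, without the corner area (both added after seeing the data) or without spots under 10000 UMIs, and 7 (all but Cd247, Cd4 and Thy1) with no filter, DESeq2 or the replicate block. Leaving out each section gave 11 to 207 genes and 0 to 6 of the 10: 0 without CC075F1 replicate 1 or 2, and 6 without CC080F1 replicate 1 or 2, where a lone section is assumed to vary like the others. The signaling list went from 0 calls to 3 with no filter, 2 with DESeq2, 3 with the replicate block, and 0 to 1 without a section. Same-numbered sections deviated with a correlation of 0.165 over 15572 genes, and 2 pairs cannot show whether the numbers pair them.

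For the edge, 166 genes were called, 71 with 5 steps, 313 with the outer boundary alone, 277 without the spots over 1%, and 4 to 1005 without a section (20 without CC075F1 replicate 1, 4 without CC080F1 replicate 2 and 1005 without CC080F1 replicate 1). Of the 10 genes 1 was called, 0 with 2 or 5 steps, library size alone or the corner area left out, and 0 to 3 without a section. The interaction gave 16 genes, 25 with 2 steps, 31 without the spots over 1% and 1 to 501 without a section, and 0 to 1 of the 10 genes (Thy1, without CC080F1 replicate 2). No spot passed the 5% limit, so that setting left the values as they were. The ratio of shares ran from 2.47 to 2.87 without a section, the Cd8a to Cd4 difference from 0.99 to 3.06, and the Thy1 to CD3 difference from -2.41 to -2.03, all on their own scale. No called value changed sign. Uncalled values that did were Cd8b1 at the edge (-0.059 with 2 steps, and -0.077 to 0.14 without a section), the Cd4 ratio of shares (0.702 at 2 UMIs or more, and 0.964 to 2.60 without a section), and in the interaction Cd3e 0.00054, Cd3g 0.014, Trac 0.064 and Trbc2 0.046 with library size alone, Trbc2 0.0085 with 2 steps, and Trbc2 0.11 and Cd8b1 -0.20 with 5 steps. Leaving out a section, the interaction ran from -0.33 to 0.70 for Cd3d, -0.74 to 0.46 for Cd3e, -0.62 to 0.29 for Cd3g, -0.48 to 0.11 for Cd247, -0.63 to 0.46 for Trac, -0.36 to 0.15 for Trbc2, -0.38 to 0.53 for Cd8b1 and -0.72 to 2.49 for Cd4. Where a count or call moved, the cause was not tested. Cd4 is limited by 22 to 62 UMIs a section.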

Other observations

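Other cell lists, each found in these sections by all or nearly all of its genes, were at the following summed levels. The 4 B cell markers were at 3.49 and 4.83 CPM in CC075F1 and 2.85 and 2.43 CPM in CC080F1, so the sums of both CC075F1 sections were the higher ones, while Cd79b, which made up most of each sum, overlapped between the strains (1.94 and 3.59 against 2.05 and 1.62 CPM). The 6 macrophage markers were at 4109 and 3573 CPM in CC075F1 and 2423 and 2922 CPM in CC080F1. Of these C1qa, C1qb and Lyz2 were higher in both CC075F1 sections, and Adgre1, Cd68 and Csf1r overlapped. The plasmacytoid dendritic cell list was read by gene, since Bst2 of that list was at 286 to 506 CPM and outweighed the others. Siglech gave 5, 32, 14 and 33 UMIs in the 4 sections in order, and Klk1 4, 51, 5 and 37. The values of both overlapped between the strains. Ccr9, on 5, 10, 15 and 23 UMIs, was higher in both CC080F1 sections, at 0.160 and 0.204 CPM against 0.0605 and 0.0683 CPM in CC075F1.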
